A study of Bos taurus with 24 samples.

Results

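The unexposed macrophages of the study were compared between 18 h and 3 h, with the question of how far the transcriptome of resting cells drifted with time in culture. All wells labelled as control were taken, which gave 12 of the 24 libraries of the series, 6 of 18 h and 6 of 3 h. The cells were monocyte-derived macrophages (MDMs) of lactating female Holstein cows that had been classed as high or low responders by the nitric oxide their MDMs released on contact with Escherichia coli, and each class gave 3 libraries per time. All of the groups therefore share the breed, the sex, the growth factor and the culture steps. Blood monocytes had been grown for 6 days in serum-free AIM V medium with 5 ng/ml of bovine GM-CSF, then detached and seeded again in 24-well plates. Each time had a plate of its own, with a control well and a well that received E. coli, so that time cannot be told apart from plate, and the clock of 3 h and 18 h runs from the moment at which the neighbouring well was exposed. The libraries are named here by class and replicate, and replicates 1 to 3 of a class carry the same 2 code letters at both times. The labels do not say that the letters mark a cow, but the libraries with the same letters deviated together from the mean of their group (correlations in the methods), so each was treated as a pair of wells.

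Macrophages are phagocytes that sense, ingest and digest microbes and dead cells, and GM-CSF keeps those grown from monocytes alive and holds them in a state that is poised for inflammation. Left without a stimulus, they can still respond to detachment, to adhesion to new plastic, to the products that gather in the medium and to the loss of nutrients and growth factor. The genes that such conditions are known to move include immediate early genes, cell cycle genes, genes of ribosome production and the sterol pathway.

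Between 6297189 and 17676165 expected counts were assigned to genes per library at 3 h and between 8987284 and 20936550 at 18 h. Macrophage markers were abundant in every library: CTSS, a lysosomal protease, had 6231 TPM (median at 3 h) and 5029 TPM (median at 18 h), and CD68, a glycoprotein of the endosome and lysosome, had 2194 and 1963 TPM. Of the 20 listed macrophage and monocyte markers 9 had an identifier. Median TPM was lower at 18 h for CTSS, CD68, CSF2RA, AIF1, FCER1G and MPEG1 and higher for CD14, MSR1 and CYBB. Their summed level was 9724 to 14128 TPM at 3 h (median 13796) and 10298 to 12211 TPM at 18 h (median 11166, exact p = 0.102). The same sum was 117 to 1812 TPM at 3 h and 106 to 978 TPM at 18 h (exact p = 0.448) for T and NK cells (9 of 22 markers), where CCL5, which macrophages also express, made up most of it and TRAT1, SKAP1 and PRF1 had at most 2.15 TPM in any library. For neutrophils (4 of 12 markers) the sum was 16.5 to 39.8 TPM at 3 h and 18.97 to 44.2 TPM at 18 h (exact p = 0.524). FCAR made up most of it, with medians of 15.3 TPM at 3 h and 17.3 TPM at 18 h. MMP25 had at most 10.14 TPM and PGLYRP1 was at 0. For B cells (2 of 9 markers) the sum was 2.92 to 11.4 TPM at 3 h and 3.01 to 17.7 TPM at 18 h (exact p = 0.545). Fibroblast markers (4 of 8) summed to 1.62 to 7.46 TPM at 3 h and 2.95 to 5.62 TPM at 18 h (exact p = 0.885), endothelial markers (4 of 8), nearly all of it FLT1, to 24.5 to 56.7 TPM at 3 h and 36.2 to 48.6 TPM at 18 h (exact p = 0.736), and the single dendritic cell marker with an identifier, LAMP3, to 0.65 to 4.12 TPM at 3 h and 1.32 to 4.98 TPM at 18 h (exact p = 0.472). Of 7 erythroid markers 2 had an identifier and summed to at most 0.22 TPM, and none of the 7 platelet markers had one. These p values are from exact two-sided permutation tests over the libraries, of which the smallest possible is 0.00216, and none of them fell below 0.05.

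The libraries were set apart by the pair of wells far more than by time. Over the 11581 genes with enough counts to be tested, the pair of wells took a median of 60.7% of a gene's variance in log2 CPM (CPM are counts scaled to a common, TMM-normalized library size), time took 6.08%, and 26.2% remained. The mean shares were 60.8%, 11.4% and 27.8%, where means in proportion to the degrees of freedom would be 45.5%, 9.09% and 45.5%. The median for time lay below its mean and is not to be set against these proportions. Time took the largest share in 602 genes and the pair in 9234. This count favours the pair, which has 5 degrees of freedom against 1 for time. Responder class lies within the pair share and took a median of 9.98% and a mean of 18.3%, where a mean of 9.09% would be in proportion. On the first principal component, which held 39.9% of the variance of the 500 most variable genes, the high and low responder libraries did not overlap, while the step from 3 h to 18 h lay between -2.44 and 2.51 units in the 6 pairs, on an axis where the libraries spanned 55.1 units. On the second component the steps reached -18.05 units and went in both directions.

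**Figure D1:**
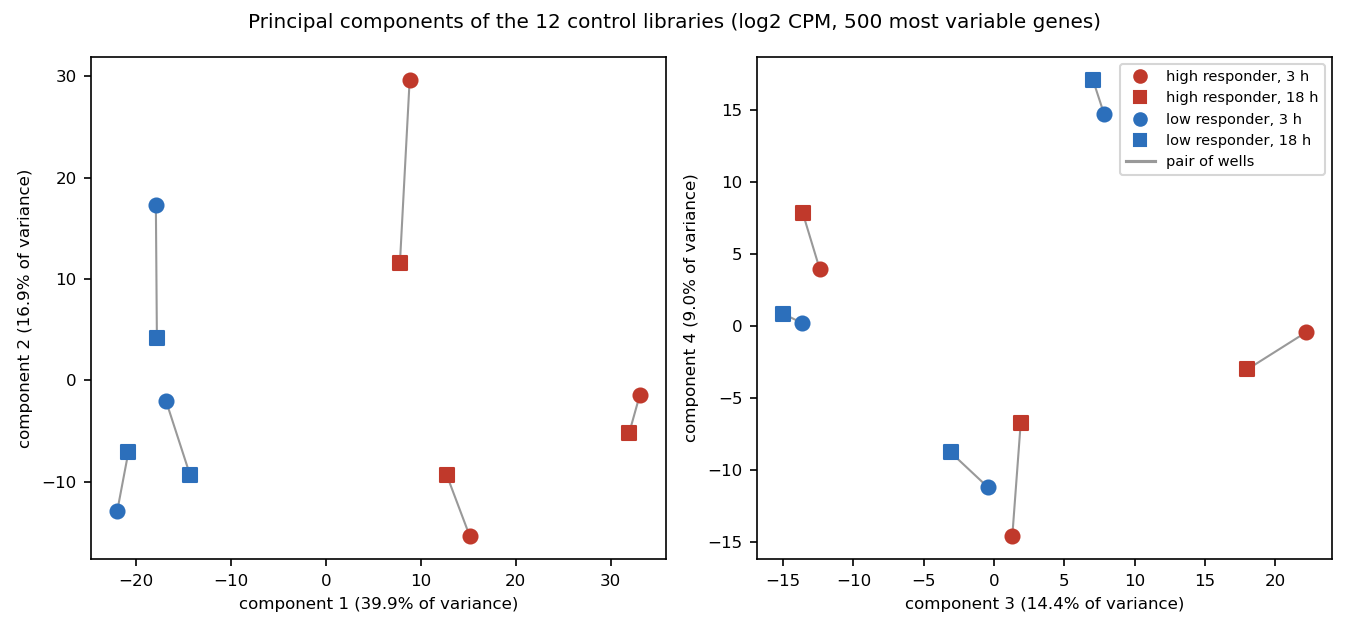
Principal components 1 to 4 of the 12 control libraries, in units of log2 CPM over the 500 most variable genes. Circles are 3 h, squares 18 h, red high and blue low responders, and grey lines join the wells of a pair. On the first component the wells of a pair lie close together, and this axis, with 39.9% of the variance, separates the responder classes, not the times.

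Few genes passed as differentially expressed (DE) between the times. DE means a Benjamini-Hochberg adjusted p below 0.05 in the quasi-likelihood test of edgeR and a fold change above 1.5. In the fit with responder class as covariate, called unpaired here, 1 gene was higher at 18 h (0.00863% of those tested) and 2 were lower (0.0173%), and DESeq2 with the same terms called 32 and 23. With a term for each pair of wells, the paired fit, 17 genes rose (0.147%) and 28 fell (0.242%), among them the 3 of the unpaired fit. At an unadjusted p below 0.05 the unpaired fit held 471 genes of positive (4.07%) and 591 of negative change (5.1%), and the paired fit 993 (8.57%) and 865 (7.47%). The count of the paired fit depended on single pairs: it was 5 higher and 14 lower without high responder pair 3, 14 and 29 without high pair 2, 6 and 23 without high pair 1, 6 and 18 without low pair 2, 7 and 13 without low pair 3, and 3 and 13 without low pair 1.

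Most genes had small estimates. The median log2 fold change over all genes tested was 0.01 in the unpaired and 0.03 in the paired fit, and the median size regardless of sign was 0.148 and 0.156. In the paired fit 126 genes (1.09%) had an estimate beyond 2-fold. The 95% interval lay within 2-fold in both directions for 10287 genes (88.8%) and within 1.5-fold for 7288 (62.9%), and in the unpaired fit for 84.1% and 54.6%. For the other genes a change of that size lay within the interval, so its absence was not shown at this depth and number of wells. All 6 pairs were higher at 18 h in 569 genes (4.91%) and lower in 743 (6.42%). The ranges of both times did not overlap in 37 genes that were higher (0.319%) and 51 that were lower at 18 h (0.44%).

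The 28 genes that fell in the paired fit had log2 fold changes from -2.19 to -0.60 (median -1.05) and mean levels from 1.78 to 482 CPM, and the 17 that rose had 0.66 to 1.71 (median 1.16) and 2.71 to 162 CPM. Only 10 of the first and 2 of the second have a symbol in the sources used here, and the others are known by their Ensembl identifier alone. All 45 moved in the direction of the call in each of the 6 pairs, and 10 of them had ranges that did not overlap between the times. The paired fit chose them on these same pairs, so the shared sign is no separate support. Over all genes tested, ranges did not overlap in 0.319% that were higher and 0.44% that were lower at 18 h. DESeq2 in its paired form called all 45, and in its unpaired form 24. In the 6 fits that each left out 1 pair, 14 of the 45 were called every time and 7 never. RNA came from whole wells, in which fewer cells of a type and less RNA per cell cannot be told apart.

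The genes past both thresholds in the unpaired fit were 1 with a symbol and 2 without. TNFSF18, the ligand of the receptor GITR and a costimulator of T cells, had 22.2 to 36.5 CPM at 3 h (median 25.04) and 6.84 to 14.3 CPM at 18 h (median 8.81). Every library of 18 h lay below every library of 3 h. The log2 fold change was -1.53 (adjusted p = 0.0204, SE 0.20) in the unpaired and -1.55 (adjusted p = 0.00592, SE 0.18) in the paired fit, a level 2.92 times as high at 3 h as at 18 h. The unpaired call was lost in 9 of the 12 fits that left out 1 library, listed with the limits, and the paired call stayed without any of the pairs. ENSBTAG00000006343 had a median of 34.1 CPM at 3 h (lowest 19.2, highest 41.5) and of 7.45 CPM at 18 h (lowest 4.37, highest 12.3), again without overlap. It had the smallest p of all genes and kept its call without any 1 library or pair, with a log2 fold change of -2.07 (adjusted p = 0.000164, SE 0.16) in the unpaired and -2.08 (adjusted p = 0.0011, SE 0.15) in the paired fit. ENSBTAG00000021685 was the single gene of the unpaired fit that rose, from 9.06 to 16.6 CPM at 3 h (median 12.6) to 29.1 to 63.5 CPM at 18 h (median 38.2), with no overlap between the times. Its log2 fold change was 1.70 (adjusted p = 0.0204, SE 0.23) in the unpaired and 1.70 (adjusted p = 0.00592, SE 0.19) in the paired fit. The unpaired call was lost in 8 of the 12 fits that left out 1 library, and the paired call stayed without any of the pairs.

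Genes of immune signalling were among those that fell in the paired fit. These and the DE genes in the next 2 paragraphs, except THBS1, were chosen after their values were seen, because the paired fit called them. TBX21 encodes T-bet, the transcription factor of the type 1 helper T cell and NK cell programmes, which myeloid cells can also express. It had 3.497 to 19.6 CPM at 3 h (median 11.3) and 1.23 to 6.87 CPM at 18 h (median 3.62), lower at 18 h in every pair although the ranges overlapped. The log2 fold change was -1.62 (adjusted p = 0.218, SE 0.37) in the unpaired and -1.55 (adjusted p = 0.0136, SE 0.21) in the paired fit, and the call was lost without high pair 3, low pair 2 or low pair 3 (adjusted p up to 0.0646). Among the T and NK cell markers above, of which TBX21 is itself one, the summed level ranged from 117 to 1812 TPM at 3 h and from 106 to 978 TPM at 18 h, and its part in the change was not tested. SLAMF1 (CD150), a self-binding receptor of lymphocytes and phagocytes that also takes part in phagosome maturation, had a median of 44.01 CPM at 3 h (lowest 10.9, highest 99.4) and of 32.7 CPM at 18 h (lowest 5.35, highest 57.1). The spread between pairs was wider than its log2 fold change, which was -0.62 (adjusted p = 0.621, SE 0.35) in the unpaired and -0.64 (adjusted p = 0.0384, SE 0.11) in the paired fit, and its 3 low responder pairs lay above its 3 high responder pairs at each time. S1PR3, a receptor for the lipid mediator sphingosine phosphate, had 1.47 to 20.7 CPM at 3 h (median 9.82) and 1.01 to 8.62 CPM at 18 h (median 5.001), with the same order of the classes. Its log2 fold change was -1.07 (adjusted p = 0.351, SE 0.33) in the unpaired and -1.07 (adjusted p = 0.0367, SE 0.18) in the paired fit. AIF1 (IBA1), an actin-bundling protein that marks macrophages, had a median of 121 CPM at 3 h (lowest 85.2, highest 196) and of 81.1 CPM at 18 h (lowest 60.8, highest 110.4). It was lower at 18 h in every pair, with a log2 fold change of -0.64 (adjusted p = 0.33, SE 0.19) in the unpaired and -0.64 (adjusted p = 0.0412, SE 0.11) in the paired fit. LAIR1, an inhibitory receptor for collagen, was 1 of the 2 genes with a symbol that rose: it had 2.73 to 11.6 CPM at 3 h (median 5.51) and 4.64 to 29.1 CPM at 18 h (median 16.2). The level was higher at 18 h in each pair, with a log2 fold change of 1.43 (adjusted p = 0.352, SE 0.44) in the unpaired and 1.42 (adjusted p = 0.0311, SE 0.23) in the paired fit. The calls of SLAMF1, S1PR3 and AIF1 rested on all 6 pairs, since each was lost without any 1 of them (adjusted p up to 0.197, 0.204 and 0.146), and that of LAIR1 stayed only without low pair 2 (up to 0.146). For AIF1 the lowest adjusted p of these fits was 0.0418, and there the call was lost on the fold change, below 1.5-fold.

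Matrix genes were among those that fell and those that rose in the paired fit. THBS1 encodes thrombospondin 1, an adhesive glycoprotein that macrophages and platelets secrete and that activates latent TGF-beta. It had 159.8 to 569.6 CPM at 3 h (median 291) and 77.1 to 305 CPM at 18 h (median 129), with ranges that overlapped. In every pair the value was lower at 18 h, and the log2 fold change was -1.01 (adjusted p = 0.478, SE 0.39) in the unpaired and -1.01 (adjusted p = 0.00307, SE 0.10) in the paired fit, a call that stayed without any of the pairs. HAS2, a synthase of the matrix polymer hyaluronan, had a median of 33.6 CPM at 3 h (lowest 23.8, highest 58.6) and of 16.7 CPM at 18 h (lowest 12.2, highest 21.1), without overlap. Its log2 fold change was -1.18 (adjusted p = 0.186, SE 0.22) in the unpaired and -1.14 (adjusted p = 0.0183, SE 0.16) in the paired fit, and the call was lost without high pair 3, low pair 1 or low pair 3 (adjusted p up to 0.107). TNXB, the matrix protein tenascin X, was low throughout, with 0.914 to 12.1 CPM at 3 h (median 3.41) and 1.86 to 22.2 CPM at 18 h (median 7.22), and all 6 pairs were higher at 18 h. Its log2 fold change was 1.29 (adjusted p = 0.374, SE 0.42) in the unpaired and 1.19 (adjusted p = 0.0367, SE 0.20) in the paired fit, and the call was lost without any 1 of the pairs (adjusted p up to 0.197). Of the 19 tested members of the list of matrix and proteolysis genes, THBS1 was the only one called in the paired fit, none was called in the unpaired fit, DESeq2 with the pairs called THBS1 lower and LTBP2 higher, 11 had a positive estimate and the median was 0.08.

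Among metabolic genes, CYP27B1 and CYP51A1 fell in the paired fit. CYP27B1 is the hydroxylase that makes the active form of vitamin D, in macrophages as in the kidney. Its level was 36.8 to 107 CPM at 3 h (median 64.7) and 14.02 to 56.1 CPM at 18 h (median 28.1), and the change in the single pairs lay between -0.77 and -1.52 on the log2 scale. The log2 fold change was -1.06 (adjusted p = 0.384, SE 0.35) in the unpaired and -1.08 (adjusted p = 0.00592, SE 0.12) in the paired fit. CYP51A1, the lanosterol demethylase of cholesterol synthesis, had a median of 28.3 CPM at 3 h (lowest 24.4, highest 71.7) and of 16.8 CPM at 18 h (lowest 13.4, highest 46.8). High responder pairs 1 and 3 stood above the other 4 pairs at both times, while the change was nearly the same in all 6 pairs (-0.61 to -0.89). It was -0.75 (adjusted p = 0.409, SE 0.26) in the unpaired and -0.77 (adjusted p = 0.00709, SE 0.09) in the paired fit, and the calls of CYP27B1 and CYP51A1 stayed without any of the pairs. SLC37A2, a sugar phosphate exchanger of the endoplasmic reticulum that is abundant in macrophages, had 406 to 700.0 CPM at 3 h (median 567) and 253 to 415 CPM at 18 h (median 367). Only the lowest library of 3 h reached into the range of 18 h, and the log2 fold change was -0.68 (adjusted p = 0.202, SE 0.15) in the unpaired and -0.67 (adjusted p = 0.0136, SE 0.09) in the paired fit. This call was lost without high pair 3 or any low pair (adjusted p up to 0.0963).

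**Figure D2:**
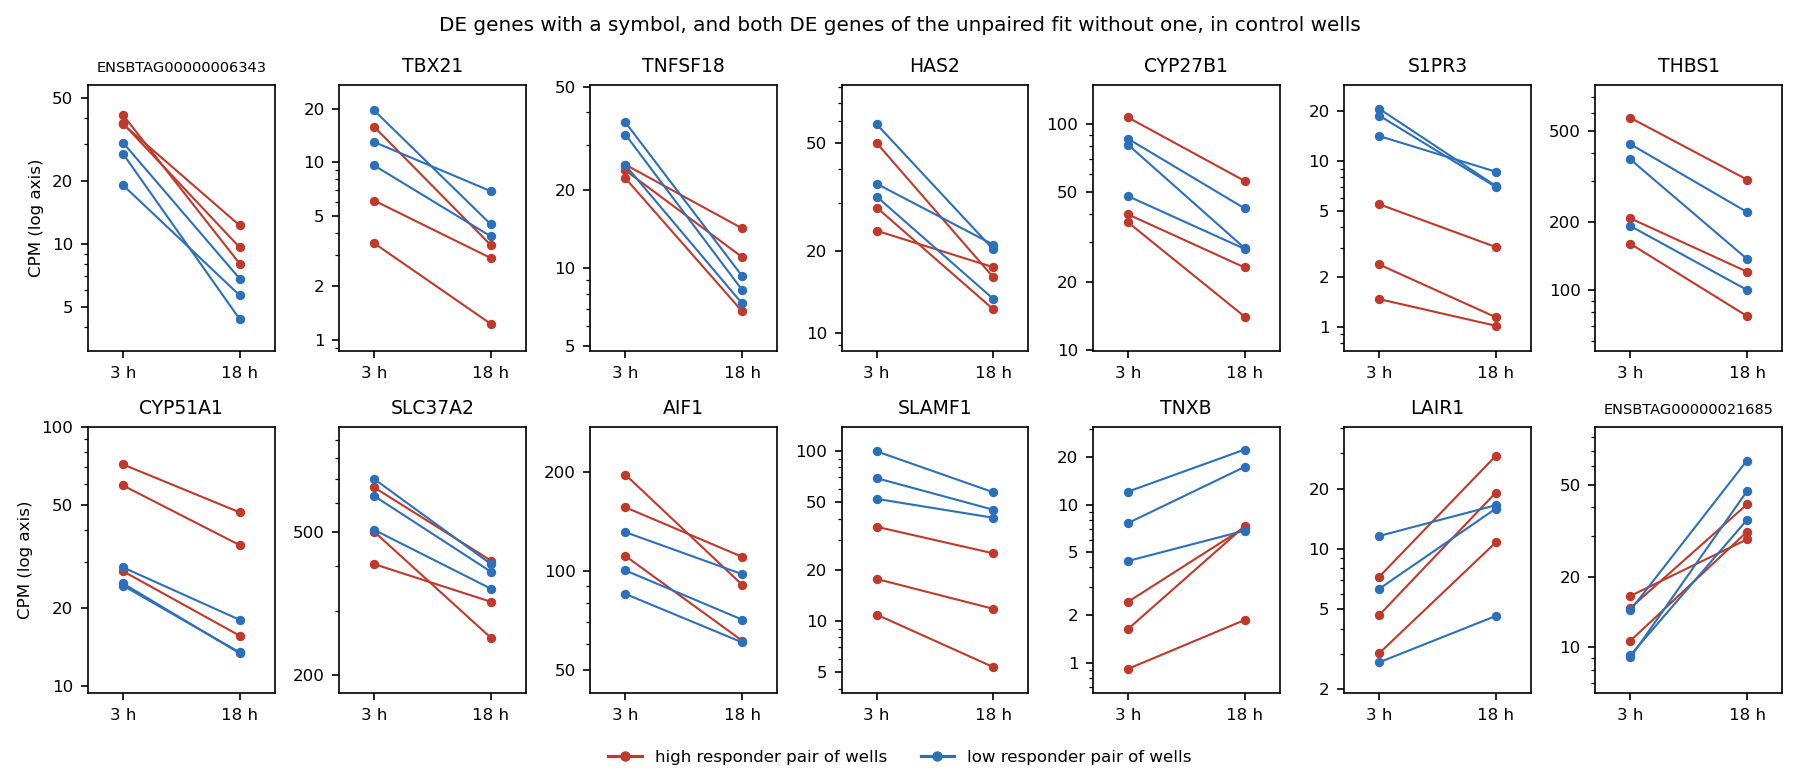
Level in CPM (log axis) at 3 h and 18 h of the 12 DE genes with a symbol and of ENSBTAG00000006343 and ENSBTAG00000021685, in control wells. Each line joins the wells of 1 pair (red high, blue low responder). All 6 lines of every panel run in 1 direction, and the levels of S1PR3 and SLAMF1 differ more between the pairs than between the times. The genes were called on these same pairs, which favours a shared direction.

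Cell cycle genes had small positive estimates at 18 h. Of 57 tested genes of mitosis (76 listed), 56 had a positive log2 fold change, with a median of 0.32 against 0.01 over all genes tested, of which 51.9% were positive. None was called in the unpaired or the paired fit, and DESeq2 called 1 without the pairs, CCNF, and 7 with them, all higher and among them CCNF, MKI67 and TOP2A. At an unadjusted p below 0.05 there were 8 higher and 0 lower in the unpaired fit, and 34 and 0 in the paired fit. Over all genes tested, 4.07% were higher and 5.1% lower at that threshold in the unpaired fit, and 8.57% and 7.47% in the paired fit. DESeq2 with the pairs called 113 of all 11581 genes higher and 53 lower. The abundant members were MKI67, the proliferation marker Ki-67, with 164 to 543 CPM at 3 h (median 189) and 306 to 595 CPM at 18 h (median 396) and 0.60 (adjusted p = 0.587, SE 0.31) in the unpaired and 0.73 (adjusted p = 0.176, SE 0.22) in the paired fit, and TOP2A, the topoisomerase that untangles chromosomes, with 62.5 to 167 CPM at 3 h (median 79.1) and 98.4 to 209.8 CPM at 18 h (median 139) and 0.48 (adjusted p = 0.6252, SE 0.27) in the unpaired and 0.58 (adjusted p = 0.179, SE 0.18) in the paired fit. SMC4, a condensin subunit, had a log2 fold change of 0.30 and STMN1, a microtubule destabilizer, of 0.17 in the unpaired fit. CCNF, cyclin F, which was chosen after its values were seen, had a median of 9.14 CPM at 3 h (lowest 5.52, highest 11.7) and of 15.4 CPM at 18 h (lowest 11.5, highest 21.7), with 0.80 (adjusted p = 0.246, SE 0.19) in the unpaired and 0.82 (adjusted p = 0.0911, SE 0.18) in the paired fit. The ranges overlapped in MKI67, TOP2A and CCNF, the last only by low responder pair 2, whose value was slightly lower at 18 h.

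Genes of DNA replication and S phase had smaller estimates: 46 of 51 tested (75 listed) had a positive estimate, with a median of 0.18 and none called in either fit. DESeq2 with the pairs called 2, TICRR and CHTF18, both higher (log2 fold changes of 0.59 and 0.83 in the paired fit of edgeR), CHTF18 being named after its values were seen. The log2 fold change in the unpaired fit was 0.17 for DNMT1, 0.20 for RPA1, 0.13 for RRM1 and 0.15 for TOPBP1, the most abundant genes of the list and genes of DNA methylation, single-strand binding, nucleotide supply and the replication checkpoint. ORC6, a subunit of the origin recognition complex that was chosen after its values were seen, had a negative estimate, with -0.38 (adjusted p = 0.304, SE 0.10) in the unpaired and -0.37 (adjusted p = 0.128, SE 0.09) in the paired fit. The mean over the members of the mitosis list, 18 h minus 3 h, was 0.27, 0.69 and 0.67 log2 units in high responder pairs 1, 2 and 3, and 0.59, 0.18 and -0.05 in low responder pairs 1, 2 and 3. Low responder pair 3 differed in sign from the other 5. For the replication list the mean lay between -0.08 and 0.53, with the negative value in the same pair.

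Genes of ribosome production had small negative estimates. Ribosome biogenesis takes place in the nucleolus, where rRNA is made, processed and assembled with proteins. Of 26 tested members (47 listed) 25 had a negative log2 fold change, with a median of -0.24. None was called in either fit. At an unadjusted p below 0.05, 10 were negative in the unpaired fit and 10 in the paired fit, and none was positive. Over all genes tested, 5.1% were negative at that threshold in the unpaired fit and 7.47% in the paired fit. NCL, nucleolin, the most abundant of them, had 348 to 630.1 CPM at 3 h (median 545) and 430.1 to 461 CPM at 18 h (median 437) and had a log2 fold change of -0.25 (adjusted p = 0.555, SE 0.12) in the unpaired and -0.23 (adjusted p = 0.322, SE 0.11) in the paired fit. RRP12, SBDS and MDN1, the others of highest level, had log2 fold changes of -0.10, -0.03 and 0.02 in the unpaired fit, and GPATCH4, which was chosen after its values were seen, had a median of 26.9 CPM at 3 h (lowest 18.7, highest 28.2) and of 18.2 CPM at 18 h (lowest 15.7, highest 21.2), with -0.44 (adjusted p = 0.313, SE 0.13) in the unpaired and -0.43 (adjusted p = 0.16, SE 0.12) in the paired fit. The mean over the list was negative in all 6 pairs, between -0.24 and -0.13 log2 units. None of these estimates reached the 1.5-fold that a call required.

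The 13 tested ribosomal protein genes (79 listed) all had negative estimates in the unpaired fit, with a median of -0.25 and no call in either fit. In the paired fit 7 were lower at an unadjusted p below 0.05, against 7.47% of all genes tested. RPL5, RPS12 and RPS18, all abundant, had log2 fold changes of -0.31, -0.31 and -0.25. In contrast to ribosome biogenesis the sign was not shared by the pairs. The mean over the list lay between -0.57 and 0.22 and was positive in 3 of 6. Even so, 6 of the 13 members were lower at 18 h in all 6 pairs, against 6.42% of all genes tested. Genes of oxidative phosphorylation, the respiratory chain and ATP synthase, had a median of -0.23 over 13 members (78 listed) and no call. Of these, 6 were lower at an unadjusted p below 0.05 in the paired fit, against 7.47% of all genes tested. The ATP synthase subunits ATP5F1A, ATP5F1D, ATP5MC3 and ATP5PF were at -0.07, 0.02, -0.31 and -0.28. Mitochondrial ribosome genes had a median of -0.07 (21 tested, none called), and those of glycolysis and lactate export 0.04 (18 tested, none called), where ENO1, GAPDH, LDHA and PKM had log2 fold changes of -0.03, -0.03, 0.10 and 0.06.

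**Figure D3:**
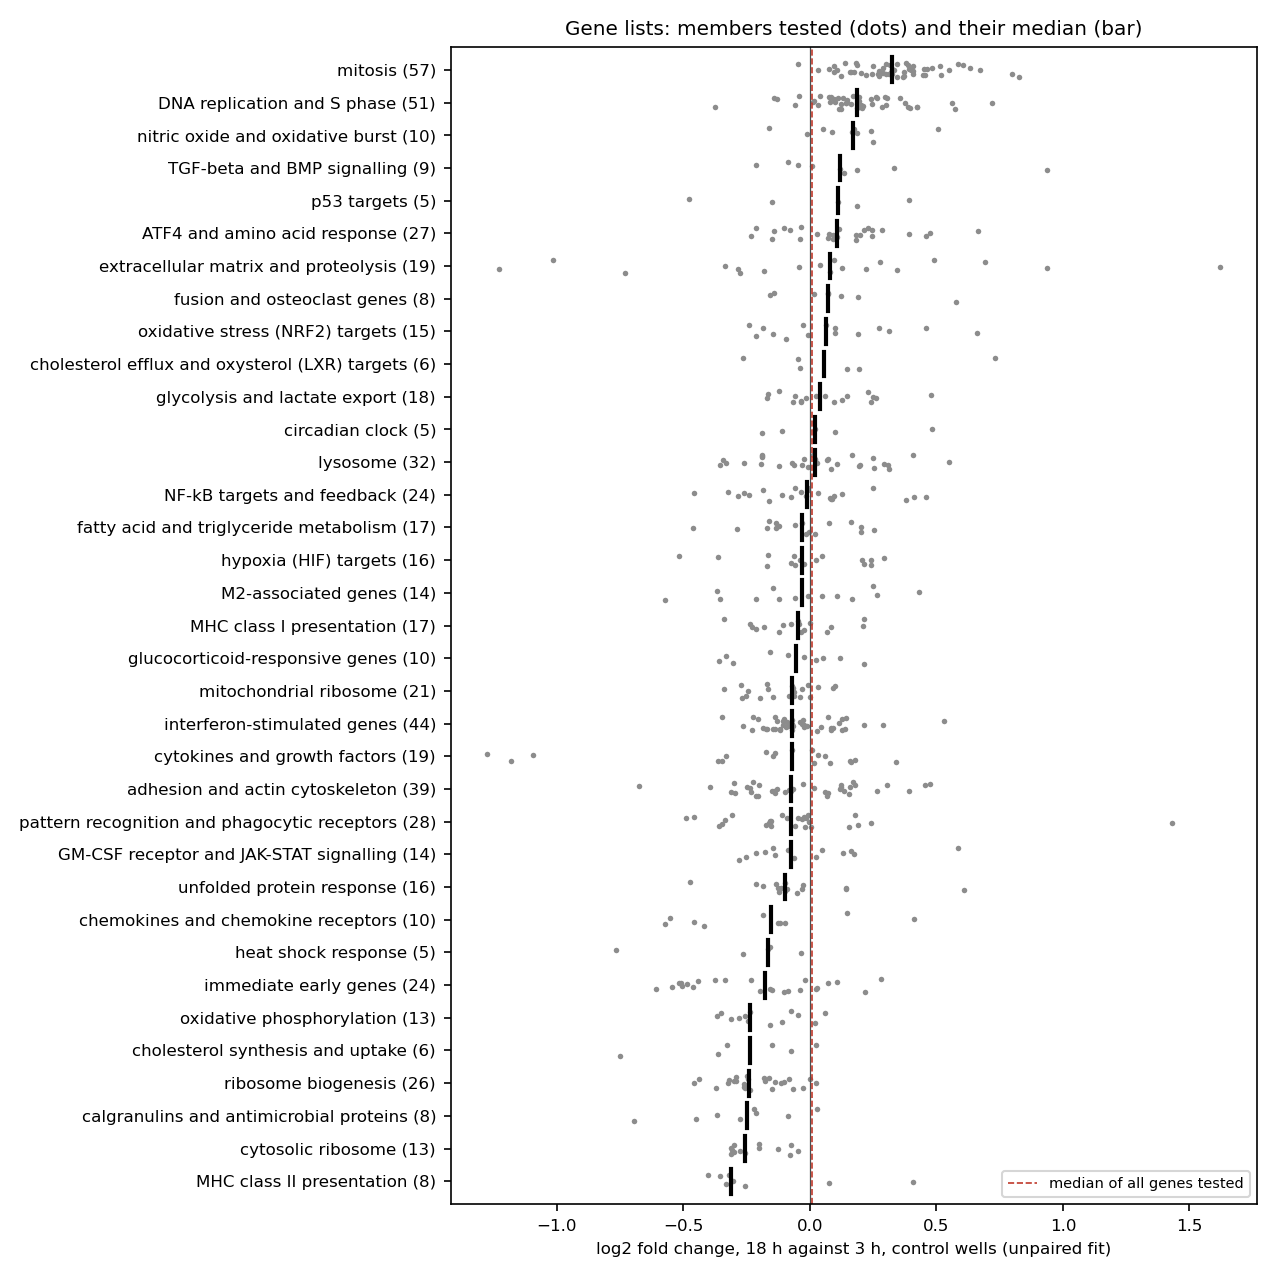
Log2 fold change of each tested member (grey dots) of the 35 gene lists, 18 h against 3 h in control wells, with the median of each list as a black bar, the number of members in brackets and the median of all genes tested as a dashed line. Medians run from -0.31 for MHC class II presentation to 0.32 for mitosis, and a few single genes lie beyond 1 in either direction.

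Sterol genes were few among the symbols available. Of 26 listed genes of cholesterol synthesis and uptake 6 were tested, and CYP51A1, above, was the only one called, in the paired fit alone. Among the others were ACAT2, which joins acetyl units at the start of the pathway, with -0.36 (adjusted p = 0.304, SE 0.10) in the unpaired and -0.37 (adjusted p = 0.116, SE 0.09) in the paired fit, and INSIG1, a partner of the sterol sensor, with -0.15 in the unpaired fit. The list had a median of -0.24 and a mean that was negative in all 6 pairs (-0.34 to -0.11). The list of genes of cholesterol efflux and of the oxysterol receptor LXR and its targets had a median of 0.06 (6 tested, none called). Among them ABCA1, the pump that exports cholesterol, had 38.8 to 193 CPM at 3 h (median 91.3) and 133 to 208 CPM at 18 h (median 156) and was higher at 18 h in all 6 pairs, with 0.73 (adjusted p = 0.409, SE 0.25) in the unpaired and 0.82 (adjusted p = 0.12, SE 0.20) in the paired fit, while ABCA3, SOAT1 and CYP27A1 had log2 fold changes of 0.19, -0.26 and 0.15. ABCA1 did not pass the adjusted threshold in either fit of edgeR, and DESeq2 called it higher with the pairs and not without them.

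Immediate early genes, the transcription factors and phosphatases that cells switch on soon after a stimulus, had a median of -0.18 over 24 tested (48 listed), with 18 negative and none called. At an unadjusted p below 0.05, 6 were lower in the paired fit and none higher, against 7.47% and 8.57% of all genes tested. The most abundant, ATF3, JUN, PPP1R15A and SGK1, had log2 fold changes of -0.23, 0.07, -0.10 and 0.02. KLF10 and RGS2, a TGF-beta-induced repressor and a brake on G protein signalling, were chosen after their values were seen: KLF10 had a log2 fold change of -0.44 (adjusted p = 0.303, SE 0.12) in the unpaired and -0.45 (adjusted p = 0.0736, SE 0.09) in the paired fit and RGS2 of -0.52 (adjusted p = 0.304, SE 0.14) in the unpaired and -0.50 (adjusted p = 0.0809, SE 0.10) in the paired fit. Of 19 tested cytokines and growth factors none was called in either fit, and the median was -0.07. DESeq2 with the pairs called 3, all lower. These were CSF2, TNFSF4 and INHBA, which had the largest negative estimates and were likewise chosen after their values were seen. CSF2 encodes GM-CSF, the factor that was also added to the medium, and had 4.12 to 28.1 CPM at 3 h (median 8.49) and 2.48 to 6.14 CPM at 18 h (median 4.47), with -1.27 (adjusted p = 0.304, SE 0.34) in the unpaired and -1.23 (adjusted p = 0.1, SE 0.28) in the paired fit. DESeq2 without the pairs also called it. TNFSF4 (OX40 ligand) had a median of 12.98 CPM at 3 h (lowest 3.67, highest 26.6) and of 6.16 CPM at 18 h (lowest 0.434, highest 10.3), with -1.18 (adjusted p = 0.384, SE 0.39) in the unpaired and -1.30 (adjusted p = 0.0698, SE 0.25) in the paired fit. INHBA, the activin A subunit, had 10.5 to 41.7 CPM at 3 h (median 22.4) and 3.04 to 16.2 CPM at 18 h (median 12.3), with -1.09 (adjusted p = 0.365, SE 0.34) in the unpaired and -1.09 (adjusted p = 0.056, SE 0.20) in the paired fit. The value was lower at 18 h in 6 of 6 pairs for CSF2, 6 for TNFSF4 and 6 for INHBA.

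Of the genes named whatever their values, only THBS1, above, passed the thresholds in control wells, in the paired fit alone. The inflammatory genes described next did not pass in either fit. NOS2, the inducible nitric oxide synthase, stayed at a low level, with 2.37 to 10.6 CPM at 3 h (median 6.52) and 4.28 to 9.19 CPM at 18 h (median 7.07). Its log2 fold change was 0.17 (adjusted p = 0.909, SE 0.28) in the unpaired and 0.15 (adjusted p = 0.833, SE 0.29) in the paired fit. IL1B, the inflammasome cytokine, had 41.5 to 112 CPM at 3 h (median 59.6) and 38.1 to 155 CPM at 18 h (median 95.03), with a log2 fold change of 0.34 (adjusted p = 0.828, SE 0.34) in the unpaired and 0.33 (adjusted p = 0.438, SE 0.19) in the paired fit. The ranges of both genes overlapped widely. CXCL8, the neutrophil chemokine, was abundant without exposure, with a median of 535 CPM at 3 h (lowest 337, highest 993) and of 524 CPM at 18 h (lowest 350.5, highest 881) and -0.13 (adjusted p = 0.921, SE 0.23) in the unpaired and -0.13 (adjusted p = 0.62, SE 0.12) in the paired fit. CCL5, a chemokine for T cells and monocytes, spread more between the pairs than between the times, with 35.8 to 791 CPM at 3 h (median 239) and 32.8 to 369 CPM at 18 h (median 236). Its log2 fold change was -0.46 (adjusted p = 0.769, SE 0.38) in the unpaired and -0.44 (adjusted p = 0.323, SE 0.20) in the paired fit. IL6 was near the limit of detection, with a median of 1.08 CPM at 3 h (lowest 0.114, highest 3.43) and of 1.54 CPM at 18 h (lowest 0.372, highest 2.43). IRF1, an interferon-induced transcription factor, had a log2 fold change of -0.02 (adjusted p = 0.979, SE 0.13) in the unpaired fit. TNF and IL10 were not analysed here.

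The calgranulins, calcium-binding antimicrobial proteins of myeloid cells, varied widely between the pairs at each time. S100A8 had 2.54 to 64.3 CPM at 3 h (median 15.6) and 2.81 to 48.7 CPM at 18 h (median 13.6), S100A9 had 1.75 to 21.98 CPM at 3 h (median 9.26) and 3.04 to 29.2 CPM at 18 h (median 6.97), and S100A12 had 32.7 to 479 CPM at 3 h (median 134) and 49.3 to 529 CPM at 18 h (median 138). The ranges overlapped almost entirely, and the log2 fold changes were -0.45 (adjusted p = 0.892, SE 0.64), -0.08 (adjusted p = 0.982, SE 0.52) and 0.03 (adjusted p = 0.992, SE 0.52) in the unpaired fit. The list of calgranulins and antimicrobial proteins had a median of -0.25 (8 tested, none called by edgeR), and DESeq2 with the pairs called 1 lower, AOAH, an enzyme that inactivates lipopolysaccharide and that was named after its values were seen (-0.73 in the paired fit of edgeR). Genes of nitric oxide and the oxidative burst had a median of 0.17 (10 tested, none called), with 0.25 for the arginase ARG2 and 0.05 and 0.09 for the NADPH oxidase subunits CYBB and NCF1.

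The macrophage surface and lysosomal genes described next were not called in either fit. Among the surface receptors above, the paired fit called LAIR1, SLAMF1 and S1PR3. CD14, the co-receptor for bacterial lipopolysaccharide, had 213 to 622 CPM at 3 h (median 407) and 201 to 603 CPM at 18 h (median 414), with a 95% interval of -0.21 to 0.19 for its log2 fold change in the paired fit. For TLR4, the receptor itself, with a median of 263 CPM at 3 h (lowest 169, highest 303) and of 249 CPM at 18 h (lowest 201, highest 279), the interval was -0.21 to 0.25, and for the scavenger receptor MSR1, with 458 to 1025 CPM at 3 h (median 729) and 497 to 828 CPM at 18 h (median 743), it was -0.24 to 0.16. These intervals all lie within 1.5-fold. The lipid-sensing nuclear receptor PPARG had a log2 fold change of -0.12 (adjusted p = 0.616, SE 0.11) and the haem-degrading enzyme HMOX1 of -0.14 (adjusted p = 0.529, SE 0.10) in the paired fit. GPNMB, a lysosomal glycoprotein of lipid-laden macrophages, had a median of 2197 CPM at 3 h (lowest 563, highest 4174) and of 2184 CPM at 18 h (lowest 1005, highest 4759), with 0.27 (adjusted p = 0.299, SE 0.12). LGMN, a lysosomal endopeptidase, had 901 to 5489 CPM at 3 h (median 2741) and 705 to 4775 CPM at 18 h (median 2080.4) and was lower at 18 h in all 6 pairs, but its estimate of -0.37 (adjusted p = 0.0852, SE 0.08) was below 1.5-fold. MHC class II presentation had the lowest median of the lists, -0.31 over 8 tested (24 listed), with none called. CD74, the invariant chain, was at -0.32 (adjusted p = 0.689, SE 0.21), BOLA-DRA at -0.30 (adjusted p = 0.658, SE 0.18) and CTSS, which cleaves the invariant chain, at -0.33 (adjusted p = 0.313, SE 0.10) in the unpaired fit. The level of CD74 was 219 to 541 CPM at 3 h (median 462) and 182 to 409.8 CPM at 18 h (median 369), with high responder pair 1 lowest at 3 h and high responder pair 2 lowest at 18 h, each far from the other 5, and the pair means of the list ran from -0.65 to 0.17 log2 units, positive in 2 of 6.

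In the other 20 lists the medians stayed within -0.17 and 0.12, no member was called in the unpaired fit, and the paired fit called only LAIR1, among pattern recognition and phagocytic receptors. DESeq2 with the pairs also called LAIR1 and, all higher at 18 h, RCN1 of the unfolded protein response, CBS of the ATF4 response, TPCN1 of the lysosome and LTBP2 of TGF-beta signalling, with log2 fold changes in the paired fit of edgeR of 0.60, 0.65, 0.60 and 0.91. Of these, DESeq2 called CBS without the pairs too. All but LAIR1 were named after their values were seen. The median log2 fold change was -0.17 for heat shock response (5 tested), -0.15 for chemokines and chemokine receptors (10 tested), -0.10 for unfolded protein response (16 tested), -0.08 for GM-CSF receptor and JAK-STAT signalling (14 tested), -0.08 for pattern recognition and phagocytic receptors (28 tested), -0.07 for adhesion and actin cytoskeleton (39 tested), -0.07 for interferon-stimulated genes (44 tested) and -0.05 for glucocorticoid-responsive genes (10 tested). It was -0.05 for MHC class I presentation (17 tested), -0.03 for M2-associated genes (14 tested), -0.03 for hypoxia (HIF) targets (16 tested), -0.03 for fatty acid and triglyceride metabolism (17 tested), -0.01 for NF-kB targets and feedback (24 tested), 0.02 for lysosome (32 tested) and 0.02 for circadian clock (5 tested). Positive medians were 0.06 for oxidative stress (NRF2) targets (15 tested), 0.07 for fusion and osteoclast genes (8 tested), 0.11 for ATF4 and amino acid response (27 tested), 0.11 for p53 targets (5 tested) and 0.12 for TGF-beta and BMP signalling (9 tested). The amino acid response to ATF4 was the one of these with a positive mean in all 6 pairs (0.04 to 0.27 log2 units). Its member CBS, an enzyme of cysteine synthesis that DESeq2 called without the pairs and that was chosen after its values were seen, had 8.91 to 20.02 CPM at 3 h (median 12.1) and 11.2 to 33.3 CPM at 18 h (median 20.7), with 0.66 (adjusted p = 0.218, SE 0.15) in the unpaired and 0.65 (adjusted p = 0.0639, SE 0.12) in the paired fit. The heat shock list, with 5 members, was the one with a negative mean in all 6 pairs (-0.42 to -0.02). The median of the list of NF-kB targets and feedback, close to 0, turned positive in the paired fit and in thinned counts. Interferon-stimulated genes had pair means of both signs, from -0.34 to 0.55.

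**Figure D4:**
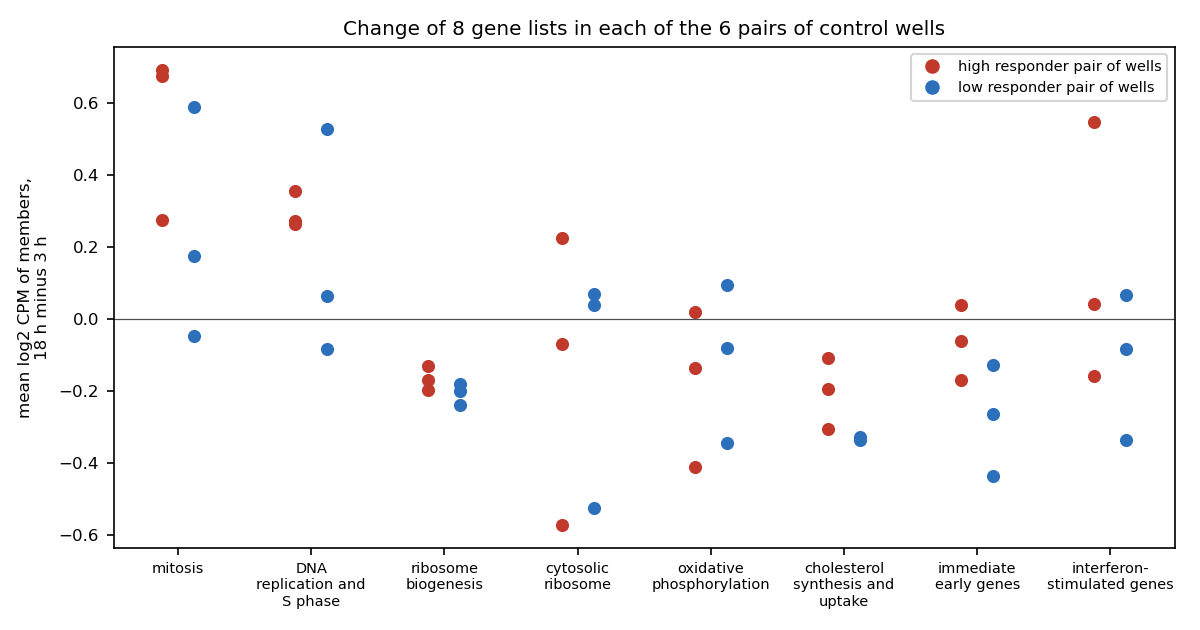
Mean change in log2 CPM over the tested members of 8 gene lists, 18 h minus 3 h, for each of the 6 pairs of control wells (red high, blue low responder). Ribosome biogenesis and cholesterol synthesis lie below 0 in every pair, mitosis lies above 0 in 5 of 6, and the means of the cytosolic ribosome and of interferon-stimulated genes have both signs.

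The change with time was next compared between the responder classes, to see whether the macrophages of high and low responder cows drifted alike. No gene differed past the thresholds (0% of 11581 tested) with the quasi-likelihood test of edgeR, with 78 genes at an unadjusted p below 0.05. DESeq2 also called none (107 unadjusted), nor did edgeR with a term for each pair (193 unadjusted). The precision of this comparison was low, since the 95% interval of the difference lay within 2-fold for 61.4% of genes and within 1.5-fold for 16.97% in the paired form. TNFSF18 had a log2 fold change of -1.15 in high and -1.91 in low responders (unpaired fit, adjusted p of the difference 1), THBS1 of -0.90 and -1.13, and LAIR1 of 2.01 and 0.85. The mitosis list had a median of 0.51 in high and 0.16 in low responders, with 57 and 45 of 57 members positive, a difference between lists that was not tested. For NOS2 the changes were 0.72 and -0.37 (adjusted p of the difference 1).

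The drift of control wells was small beside the change over the same hours in the wells that had received E. coli. Of 11229 genes tested in both kinds of well, 81 (0.721%) differed by more than 2-fold between 3 h and 18 h in control wells and 1752 (15.6%) in exposed wells, and the median size of the log2 fold change was 0.145 and 0.383. The difference between both changes passed the thresholds in 1215 genes in which the exposed wells changed upwards relative to the control wells (10.2% of 11905 tested) and in 1827 in which they changed downwards (15.3%). This test uses the control wells described above, and the values of each comparison are therefore given side by side.

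The genes named for the smallest p of this difference had log2 fold changes of at most 0.56 in size in control wells, where the value of each kind of well is from its unpaired fit and the difference is from the fit of all 24 libraries. LPL, lipoprotein lipase, had a log2 fold change of -0.46 in control and -3.89 in exposed wells (difference -3.40, adjusted p = 4.89e-09), TNFSF13, the B cell factor APRIL, of 0.16 in control and -3.38 in exposed wells (difference -3.49, adjusted p = 9.98e-09), and MSR1 of -0.06 in control and -3.63 in exposed wells (difference -3.56, adjusted p = 8.52e-08). The cell cycle genes TICRR and UBE2C had log2 fold changes of 0.56 in control and -2.60 in exposed wells (difference -3.10, adjusted p = 4e-07) and of 0.25 in control and -2.43 in exposed wells (difference -2.64, adjusted p = 2.22e-07). In the other direction, THBD, thrombomodulin, had a log2 fold change of -0.04 in control and 4.92 in exposed wells (difference 4.94, adjusted p = 4.29e-07), RETN, resistin, of -0.37 in control and 3.60 in exposed wells (difference 3.92, adjusted p = 8.69e-06), and HDHD3, FAM214B and EXO5 of -0.21 in control and 1.88 in exposed wells, 0.16 in control and 1.37 in exposed wells and 0.02 in control and 1.16 in exposed wells. Of the genes called in control wells, some passed the test of the difference and some did not. THBS1 had a log2 fold change of -1.01 in control and -2.29 in exposed wells (difference -1.20, adjusted p = 0.333), CYP27B1 of -1.06 in control and -0.73 in exposed wells (difference 0.34, adjusted p = 0.593), CYP51A1 of -0.75 in control and -0.91 in exposed wells (difference -0.11, adjusted p = 0.559) and TNFSF18 of -1.53 in control and -2.06 in exposed wells (difference -0.45, adjusted p = 0.182), and in these 4 the difference did not pass the thresholds. For AIF1 (-0.64 in control and -1.54 in exposed wells, difference -0.90, adjusted p = 0.00154), SLC37A2 (-0.68 in control and -1.60 in exposed wells, difference -0.91, adjusted p = 0.000843) and TNXB (1.29 in control and -0.09 in exposed wells, difference -1.29, adjusted p = 0.00325) it did. The other called genes with a symbol were TBX21 (median CPM of 11.3 at 3 h and 3.62 at 18 h in control wells and of 8.07 and 4.02 in exposed wells, difference 0.51, adjusted p = 0.454), HAS2 (-1.18 in control and -1.92 in exposed wells, difference -0.68, adjusted p = 0.143), S1PR3 (-1.07 in control and -0.56 in exposed wells, difference 0.42, adjusted p = 0.467), SLAMF1 (-0.62 in control and -1.14 in exposed wells, difference -0.55, adjusted p = 0.488) and LAIR1 (1.43 in control and 1.03 in exposed wells, difference -0.41, adjusted p = 0.278), and in none of these did the difference between the wells pass the test. The mitosis list, with a median of 0.32 in control wells, had one of -1.59 in exposed wells. Of its 57 members 51 were called for the difference, all of them downwards, against 15.3% of all genes tested.

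**Figure D5:**
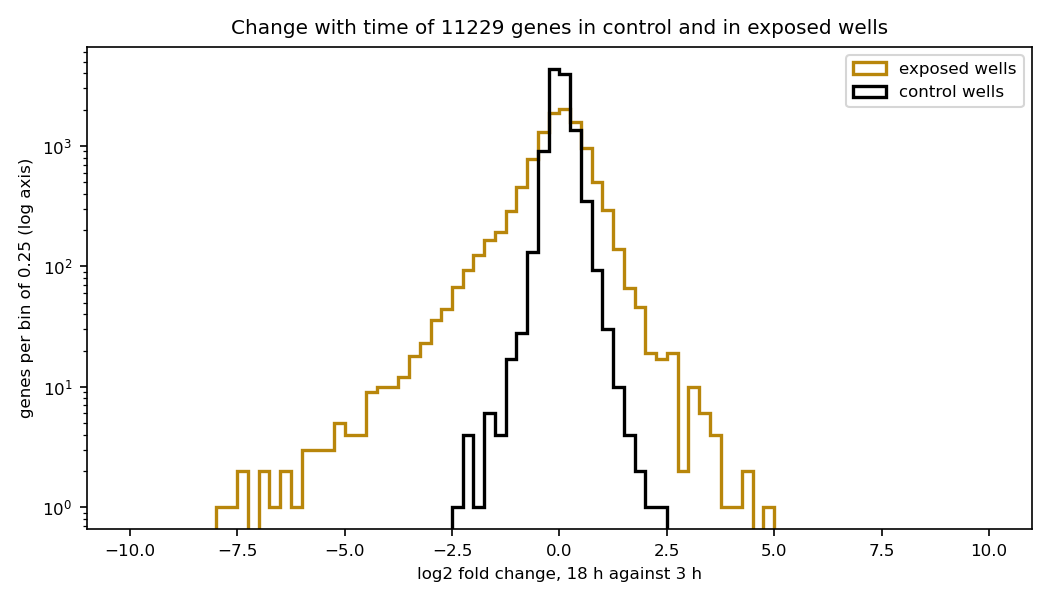
Number of genes (log axis) per bin of 0.25 in log2 fold change, 18 h against 3 h, for the 11229 genes tested in both control (black) and exposed wells (ochre), unpaired fits. In control wells 81 genes lie beyond 1 in either direction, in exposed wells 1752.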

How the data were processed

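The authors made stranded mRNA libraries (TruSeq), trimmed the read pairs with Trimmomatic and checked them with FastQC 0.11.5. STAR alignments against UMD 3.1, the cattle assembly, were passed to RSEM, which gave the expected counts per Ensembl gene used here. The deposited tables give these estimated counts, which are not normalized, beside TPM, which RSEM scaled to the same sum in each library for the authors, and effective lengths, for 24616 genes. Expected counts were rounded. The 12 control libraries were fitted in R 4.3.3 with edgeR 4.0.16 (TMM, filterByExpr, robust quasi-likelihood test) with responder class as covariate. All p values adjusted over all genes tested are Benjamini-Hochberg values of this test unless DESeq2 1.42.0 is named. CPM are TMM-normalized, and log2 CPM used a prior count of 2. Summed marker levels are sums of TPM.

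Deviations from the group mean correlated from 0.337 to 0.691 in the 6 library pairs of a class with the same code letters. In the 12 with different letters they correlated from -0.504 to -0.0666. Deviations within a group cancel out, so positive values for the same letters make negative ones for different letters likely. The negative range is therefore no separate support for the pairing. Because libraries with the same letters went together, the paired fit, with a term per pair, is given too. Nothing but the letters and this check says that a pair came from 1 cow. The difference between exposed and control wells was tested in all 24 libraries with a term for each pair of wells of a time. No 2 of the 12 libraries held identical values or agreed within sampling noise.

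The comparison, the gene lists and the rule for named genes were chosen with earlier results of these data known. Named were called genes with a symbol, no overlap and at least 5 CPM, up to 4 members per list (called, otherwise the most abundant), 20 inflammatory and macrophage genes whatever their values (18 were tested), and the 5 genes per direction with the smallest p in each difference test. Symbols came from shortened supplementary tables, which name 2239 of the genes tested. Part of their rows is ordered by the difference between the classes, so that genes with a symbol are no random sample. Alternatives were other size factors, no filter or a mean of at least 50 counts, DESeq2, an adjusted p below 0.1, no minimum fold, offsets for effective length, thinned counts, other model terms, all 24 libraries and leaving out each library. Those of the paired fit were chosen after seeing the data. Some genes that the rule names are not reported here. Low counts limit the precision of low genes.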

Additional observations from a re-analysis of the deposited data

Results flagged for a closer look

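In 6 cases 1 library stood apart from the other 5 of its time in log2 CPM, its gap to the nearest being more than Dixon's 95% limit allows as a share of the range. They were CD74 in high responder control 3 h replicate 1 (lowest of its time, gap 0.684 of the range), CD74 in high responder control 18 h replicate 2 (lowest of its time, gap 0.8404 of the range), KLF10 in high responder control 3 h replicate 3 (lowest of its time, gap 0.692 of the range), LPL in high responder control 3 h replicate 3 (lowest of its time, gap 0.749 of the range), NCL in high responder control 18 h replicate 2 (highest of its time, gap 0.715 of the range), SOAT1 in high responder control 3 h replicate 3 (lowest of its time, gap 0.693 of the range). With 184 groups examined, chance alone flags about 1 in 20, and replicate 3 of the high responders at 3 h appears in 3 of the 6.

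The change with time differed between exposed and control wells in 3042 genes by the test of the difference itself. Among the genes named, the log2 difference, exposed minus control, was negative at -0.65 for ACAT2, -0.90 for AIF1, -0.72 for ARG2, -1.23 for ATF3, -0.87 for CBS, -2.42 for CCNF, -0.61 for CD14, -1.62 for CYP27A1, -0.73 for ENSBTAG00000006343, -1.05 for ENSBTAG00000021685, -2.95 for GPNMB, -5.21 for IL6, -1.91 for INSIG1, -3.40 for LPL, -2.64 for MKI67, -3.56 for MSR1, -1.14 for PPARG, -0.64 for PPP1R15A, -1.11 for RGS2, -0.91 for SLC37A2, -1.22 for SMC4, -2.50 for STMN1, -3.10 for TICRR, -3.49 for TNFSF13, -1.23 for TNFSF4, -1.29 for TNXB, -2.59 for TOP2A, -2.64 for UBE2C. It was positive at 0.69 for CYBB, 1.17 for EXO5, 1.23 for FAM214B, 2.12 for HDHD3, 1.63 for NOS2, 3.92 for RETN, 2.97 for S100A12, 4.50 for S100A8, 4.49 for S100A9, 4.94 for THBD. Their values in both kinds of well are given above for those discussed there.

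IL1B and ATP5F1A differed in sign between the responder classes. For IL1B all 3 high responder pairs were higher at 18 h (0.17 to 1.47 log2 units). All 3 low responder pairs were lower (-0.13 to -0.004). The reverse held for ATP5F1A (-0.28 to -0.02 in high and 0.01 to 0.03 in low responder pairs). Several of these changes were very small. The estimates of the difference, high minus low, were 0.77 and -0.19 on the log2 scale, and neither passed the quasi-likelihood test (adjusted p = 1 and 1). Of 202 genes picked by the naming rule or called, 4 split in this way (1.98%), the others being ATF4 (-0.23) and MRPL9 (-0.32), against 1.25% of all genes tested.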

How the results depend on the processing

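The replicate block, a term for each pair of wells, moved the unpaired counts of 1 higher and 2 lower genes to 17 and 28, DESeq2 moved them to 32 and 23, all 24 libraries in 1 fit to 2 and 4, a term for the code number to 2 and 3, no filter to 2 and 2, and an adjusted p below 0.1 to 2 and 2. Leaving out single libraries gave 0 to 1 higher and 1 to 4 lower. They were 0 higher without high responder 18 h replicates 1 or 2, low responder 18 h replicates 1 or 3, or any low responder 3 h replicate, and 4 lower without high responder 3 h replicate 3 and 1 lower without high responder 18 h replicates 1 or 3 or any low responder library. The paired counts moved to 113 and 53 with DESeq2 and to 60 and 49 at an adjusted p below 0.1, both chosen after seeing the data, and leaving out single pairs (leave-one-out) gave 3 to 14 higher and 13 to 29 lower. Other size factors, effective lengths, thinning and both other filters kept the paired counts within 1.5 times. No setting called a gene for the difference between the classes, the block included, and the count for exposed against control wells stayed between 2230 (no replicate block) and 4211 (no minimum fold change), or 2755 to 3312 without single libraries. In refits of single named genes calls were gained 72 times, 42 of them with the block and 24 with DESeq2, lost 17 times and never reversed. The 17 losses were ENSBTAG00000021685 in 8 and TNFSF18 in 9 of the 12 fits that left out 1 library, TNFSF18 keeping its call only without high responder 18 h replicate 2 or high responder 3 h replicates 1 or 3. Medians of lists carry no test. Depth limits genes under about 5 CPM most.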
